A study of Mus musculus with 2 samples.

Results

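The 7 genes described here, Mbp, Cnp, Mag, Mog, Ugt8a, Cspg4 and Gpr17, encode myelin proteins, a myelin lipid enzyme and surface markers of oligodendrocyte precursors. Their probes were found by the array's gene name or by the current symbol of the probe's accession, which gave 15 probes for 7 of the 27666 gene names on the array. RNA came from 2 lines of cultured mouse cells (strain 129/Ola), with 1 one-colour Agilent array per line. The Pax6 line carried CAG-Pax6-IP, a vector for Pax6, a paired-box transcription factor, and the EGFP line carried CAG-EGFP-IP, which makes a green fluorescent protein, both put in by Tol2 transposon and driven by the broadly active CAG promoter. Both lines were made from N31, neural progenitor cells from induced pluripotent stem cells derived from NSEB5-2C, and in both doxycycline induced Oct3/4, Sox2, Klf4 and c-Myc, the reprogramming factors, for 24 h before RNA was taken. By then a change of cell shape was apparent in the EGFP line alone, per the series' design text. The labels do not say whether each line was 1 clone. Since each line has 1 array, no replicate checks a difference and no p-value is given. The value after ± is the measurement error that the scanner software gives, carried to the log2 difference. It leaves out how cultures vary.

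Oligodendrocytes wrap axons in myelin, a stack of membrane rich in galactolipids and held together by a small set of abundant proteins. They arise from neural progenitors through a migratory precursor that carries the NG2 proteoglycan, and the transcription factors Olig2, Sox10, Nkx2-2 and Myrf act along this path. Cnp and Cspg4 are also transcribed in other cells, and Mbp has a second group of transcripts that is not confined to oligodendrocytes.

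Of the 7 genes, 5 were well above background on both arrays (Mbp, Cnp, Mag, Ugt8a and Cspg4) and 2 on neither (Mog and Gpr17). Of all 27666 genes, 17155 were well above background on both arrays and 18508 on at least 1. By the brightest probe of each gene, Mbp was 2.10-fold lower in the Pax6 line, and Cspg4 and Ugt8a were 1.54-fold and 1.51-fold lower. Cnp was 1.30-fold lower, by less than 2 times its measurement error, and Mag differed by less than its error. Of the 5 measured genes 1 differed by at least 2-fold, beside 4.85% of all 18508 genes above background on at least 1 array. That gene, Mbp, was lower, as were 2.46% of all genes, and it differed by less than 2-fold after scaling by the array's median (-0.99) or with the mean of its probes (-0.95). By at least 1.5-fold 3 of the 5 differed, beside 13.7% of all genes, but 2 (Mbp and Cspg4) after quantile normalization, cyclic loess, normexp or spike-in scaling and 1 (Mbp) after median scaling or when probes were averaged or their median taken. The 3 were all lower, beside 7.75% of all genes, and none of the 5 was higher by as much, beside 5.98%. The median log2 difference, Pax6 minus EGFP, was -0.60 over the 5 genes and -0.01 over all genes. In a whole culture, fewer cells of a type and less RNA per cell cannot be told apart.

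**Figure D1:**
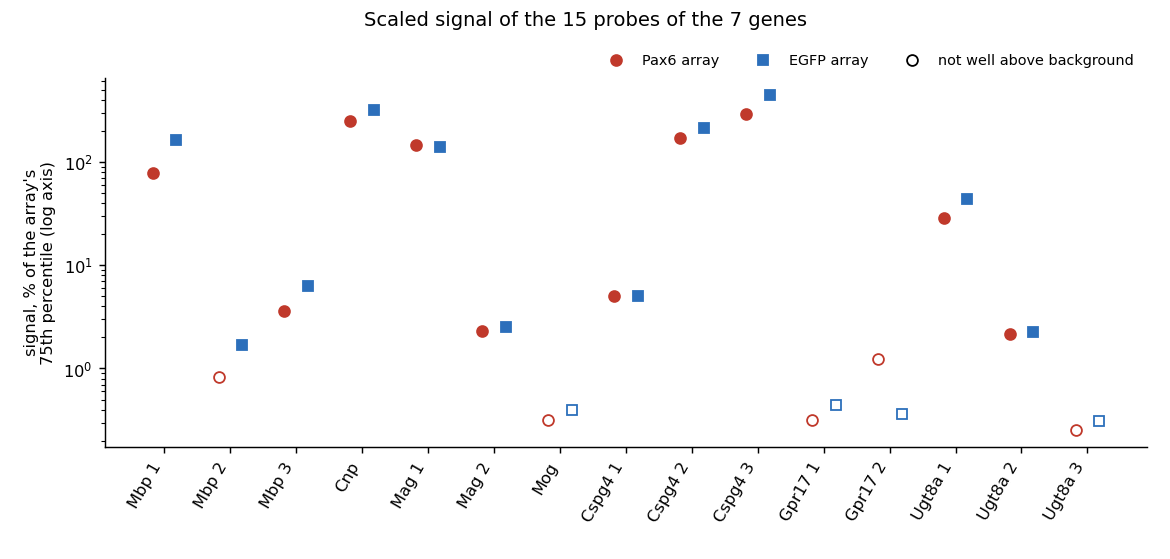
Scaled signal (percent of the array's 75th percentile, log axis) of each of the 15 probes, numbered along the chromosome within a gene, with the Pax6 array as red circles and the EGFP array as blue squares. Open symbols were not well above background. Of the 15 probes, 10 were well above background on both arrays, 1 on the EGFP array only (Mbp 2) and 4 on neither.

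Signals below are the software's processed signals, in arbitrary units. Before any difference was taken, each array was divided by its own 75th percentile, a signal of 991 on the Pax6 array and 854 on the EGFP array, so equal raw signals are not equal levels. A probe is compared only with itself on the other array, since different probes bind with different strength, and the sums over marker lists given below depend most on their brightest probes. Positions are those of the array's design, on mouse build mm7, for which exons and UTRs were not assigned here.

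Mbp encodes myelin basic protein, which holds the inner faces of the myelin membrane together. The gene also gives longer golli transcripts from an upstream start, known in neurons and immune cells. The first Mbp probe lies at chromosome 18, 82907900 to 82907959, and its design accession is annotated as transcript variant 8. It read 774 on the Pax6 array and 1398 on the EGFP array, a scaled level of 78.1% of the 75th percentile on the Pax6 array against 164% on the EGFP array. The log2 difference was -1.07 ± 0.20, and 2.04% of all genes were as low or lower.

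The other Mbp probes were designed on transcript variant 7. The one furthest along the chromosome, at chromosome 18, 82934726 to 82934785, starts 26826 bases after the first. It was printed in 10 spots, of which 8 were used after 2 that the software marked as outliers on the EGFP array were left out. Its 8 spots read 19.6 to 43.4 on the Pax6 array (median 39.0) and 45.5 to 56.3 on the EGFP array (median 54.6). The spots of the arrays did not overlap, and all 8 were lower on the Pax6 array after scaling, by -1.65 to -0.42. Their mean difference was -0.78 ± 0.24, with an SD of 0.37 between spots. These spots are repeated readings of 1 RNA sample and not replicates of the line. With normexp background correction and quantile normalization this probe differed by -0.25, and the first by -1.03.

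The middle Mbp probe, whose design coordinates run from 82922237 to 82924541 on chromosome 18, read 8.24 on the Pax6 array, not well above background, and 14.4 on the EGFP array. The Pax6 line was lower by at least 1.79-fold, where the bound takes the lowest signal that counted as well above background there or the probe's own, whichever was higher. All 3 Mbp probes read lower on the Pax6 array. Which transcripts each probe detects in these cells was not tested.

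**Figure D2:**
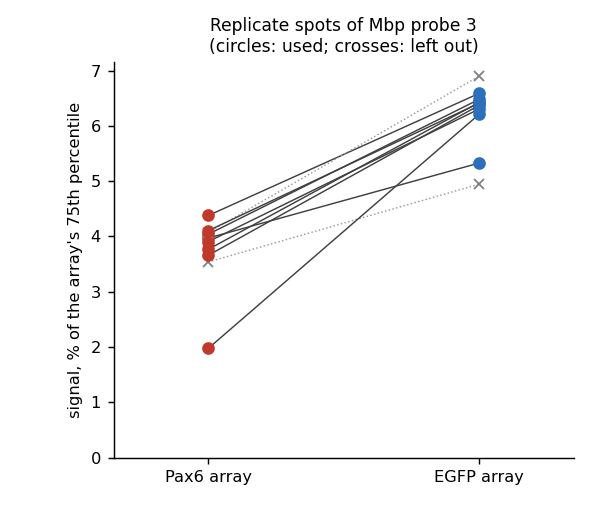
Scaled signal (percent of the array's 75th percentile) of the 10 printed spots of Mbp probe 3 on the Pax6 array (left) and the EGFP array (right), with lines joining the same spot position. Circles are the 8 spots used and crosses the 2 left out. Scaled, the used spots lay at 1.98% to 4.38% on the Pax6 array and 5.33% to 6.59% on the EGFP array.

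Cnp encodes the cyclic nucleotide phosphodiesterase of myelin, an enzyme that also keeps cytoplasmic channels in the myelin sheath open. Its 1 probe (chromosome 11, 100690342 to 100690401) read 2450 on the Pax6 array and 2741 on the EGFP array. The scaled levels were 247% and 321% of the 75th percentile on the Pax6 and EGFP arrays. The log2 difference was -0.38 ± 0.20, or 1.84 times its error, and 14.3% of all genes were as low or lower, so differences of this size were common between these arrays.

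Mag encodes myelin-associated glycoprotein, a sialic acid binding adhesion molecule on the myelin surface next to the axon. The first probe (chromosome 7, 27838993 to 27839051) read 1451 on the Pax6 array and 1197 on the EGFP array. After scaling the log2 difference was 0.06 ± 0.20. The second probe (27846799 to 27846858) read 22.6 on the Pax6 array and 21.7 on the EGFP array, a difference of -0.16 ± 0.29. Neither Mag probe differed by more than its error, and their signs were opposite, except with normexp background correction, where the second probe differed by 0.02.

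Mog encodes myelin oligodendrocyte glycoprotein, an outer surface protein of myelin that appears late in maturation. Its probe (chromosome 17, 35172002 to 35172061) read 3.15 on the Pax6 array and 3.36 on the EGFP array, not well above background on either, so no difference is given.

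Ugt8a encodes the galactosyltransferase that makes galactosylceramide, the main glycolipid of myelin. Its probe at chromosome 3, 125703915 to 125703974, read 286 on the Pax6 array and 373 on the EGFP array, with a log2 difference of -0.60 ± 0.20. Of all genes, 7.36% were as low or lower. A second Ugt8a probe, whose design coordinates run from 125705386 to 125709450, read 21.1 on the Pax6 array and 19.4 on the EGFP array, a difference of -0.09 ± 0.31 (0.01 after cyclic loess). The third (125752366 to 125752425), designed on a cerebellar cDNA, read 2.49 on the Pax6 array and 2.68 on the EGFP array, background in both lines. The lower value of Ugt8a rests on 1 of its 2 measured probes, and with the median of its probes the gene differed by -0.09.

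Cspg4 encodes the NG2 proteoglycan, the classical surface marker of oligodendrocyte precursors, which pericytes and many cultured mesenchymal cells also carry. Its 3 probes were measured on both arrays. The probe furthest along the chromosome (chromosome 9, 56927188 to 56927247) read 2846 on the Pax6 array and 3785 on the EGFP array, and its log2 difference was -0.63 ± 0.20. The probe 702 bases before it (56926486 to 56926545) read 1696 on the Pax6 array and 1836 on the EGFP array, a difference of -0.33 ± 0.20. The remaining probe (56919067 to 56919126), designed on an embryonic lung cDNA, read 49.6 on the Pax6 array and 43.0 on the EGFP array and differed by -0.01 ± 0.23, a sign that turned to 0.05 to 0.13 under other scalings. Of the Cspg4 probes, 1 was lower by more than 2 times its error, and with the mean of its probes the gene differed by -0.32.

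Gpr17 encodes a receptor that marks precursors as they commit to differentiation and is switched off before myelination. Its probe at chromosome 18, 32335174 to 32335233, read 3.16 on the Pax6 array and 3.75 on the EGFP array. Its other probe (32339534 to 32339593) read 12.2 on the Pax6 array and 3.12 on the EGFP array. The software marked neither probe as well above background on either array, so no difference is given. It makes that call spot by spot, and 12.2 exceeds the lowest signal, 9.76, that passed elsewhere on the Pax6 array.

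**Figure D3:**
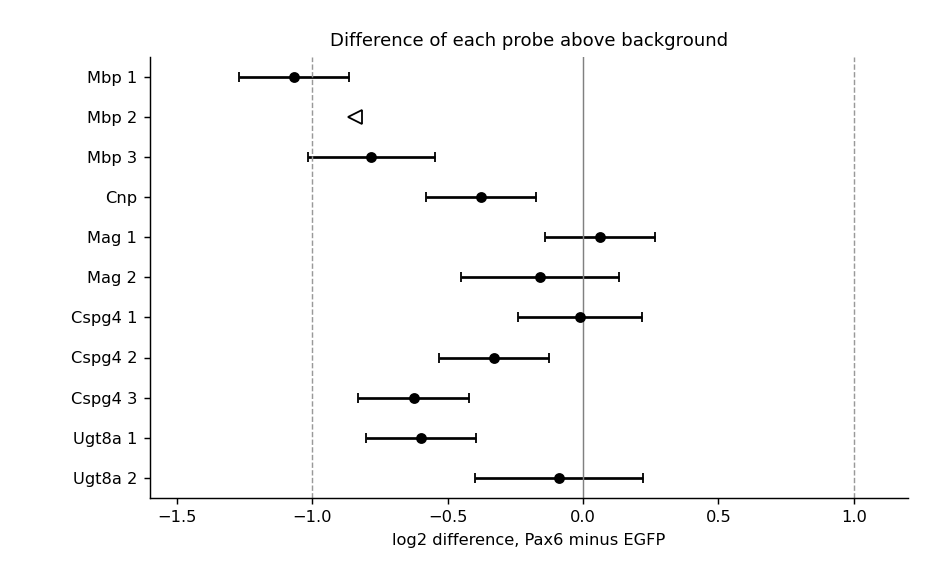
Log2 difference, Pax6 minus EGFP, of the 11 probes well above background on at least 1 array, with the software's measurement error as bars. Dashed lines mark 2-fold, and the open triangle is the bound of Mbp 2, which was not well above background on the Pax6 array. The 10 probes measured on both arrays belong to 5 genes. Of these probes 9 lay below 0, beside 51.4% of all genes by their brightest probe. Of the 9, 4 lay below by more than 2 times their error, a share not computed for all genes. The signs of Cspg4 1, Ugt8a 2 and Mag 2, each within its error of 0, turned under at least 1 other scaling.

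The 250 bases before the annotated start are shown for the 3 members other than Mbp that lay below 0, and for Mag, which did not, so that the control regions of members with and without a lower signal can be read side by side. The sequences are RefSeq's on GRCm38.p6, 5′ to 3′ on the gene's strand, at chr9:56864854-56865103 (plus strand) for Cspg4, chr3:125938653-125938902 (minus) for Ugt8a, chr11:100574689-100574938 (plus) for Cnp and chr7:30914864-30915113 (minus) for 1 of the 3 annotated Mag starts, the one listed first. Capitals mark ACAAAG or ACAATG, words of the kind that SOX factors bind, on either strand.
Cspg4: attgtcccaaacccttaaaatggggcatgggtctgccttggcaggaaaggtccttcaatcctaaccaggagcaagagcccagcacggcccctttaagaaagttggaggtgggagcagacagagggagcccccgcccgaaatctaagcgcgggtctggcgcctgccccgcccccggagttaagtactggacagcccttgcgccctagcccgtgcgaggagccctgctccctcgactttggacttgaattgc
Ugt8a: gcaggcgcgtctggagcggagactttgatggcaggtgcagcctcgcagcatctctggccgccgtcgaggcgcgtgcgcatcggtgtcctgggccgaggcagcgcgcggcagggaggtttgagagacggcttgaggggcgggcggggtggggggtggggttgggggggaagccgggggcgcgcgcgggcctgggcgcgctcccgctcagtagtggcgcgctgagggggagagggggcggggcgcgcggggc
Cnp: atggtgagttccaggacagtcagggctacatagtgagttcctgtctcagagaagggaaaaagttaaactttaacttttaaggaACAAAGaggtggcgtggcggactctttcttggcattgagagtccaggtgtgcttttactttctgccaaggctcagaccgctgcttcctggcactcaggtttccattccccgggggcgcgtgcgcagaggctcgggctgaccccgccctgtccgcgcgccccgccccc
Mag: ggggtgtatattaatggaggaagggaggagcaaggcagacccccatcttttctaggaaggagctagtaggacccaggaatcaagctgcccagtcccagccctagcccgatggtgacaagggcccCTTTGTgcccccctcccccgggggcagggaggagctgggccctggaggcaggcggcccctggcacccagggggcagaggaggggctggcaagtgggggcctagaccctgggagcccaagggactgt

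One of these SOX words was found in the window of Cnp and 1 in that of Mag, read on the opposite strand there as CTTTGT, and none was found for Cspg4 or Ugt8a. The windows of the other Mag starts held the same word in one case and none in the other. Of 27025 windows of the same length, 25.5% hold at least 1. The E-box word CAGCTG, of the kind that Olig2 binds, was in none of these 4 windows and in 12.8% of all. The windows of Ugt8a and Cspg4 had a GC content of 76.8% and 60.4%, and those of Mag and Cnp 66.0% and 57.2%. A word in a window is a description of its letters and shows no binding.

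Several of the genes known to direct the lineage were at background in both lines. Of 18 transcription factors, 12 were measured, 5 had no signal well above background and 1 had no probe under its name. Olig1, Olig2, Sox8 and Nkx2-2 were among the 5, with Olig2 at 6.03 on the Pax6 array and 9.94 on the EGFP array. Sox10, the driver of myelin gene transcription, read 20.8 on the Pax6 array and 25.9 on the EGFP array (-0.53 ± 0.32), and Myrf, which completes maturation, read 36.2 and 28.2 on the Pax6 and EGFP arrays (0.15 ± 0.26). These factors were singled out after their values were seen. Mbp, Cnp, Mag, Ugt8a and Cspg4 thus had probes well above background in cultures where Olig1, Olig2, Sox8 and Nkx2-2 did not. Sox10 and Myrf were above background there too.

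Only 1 of the 12 measured transcription factors was at least 2-fold different, Nkx6-2, a homeobox factor of oligodendrocytes and ventral progenitors, which was 2.63-fold higher in the Pax6 line (1.40 ± 0.26). It read 61.6 on the Pax6 array and 20.2 on the EGFP array, and differed by 0.47 with normexp background correction. The brightest probes of the list belonged to the broadly expressed chromatin regulators Hdac1 and Carm1, which differed by 0.01 and 0.13.

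Among the other precursor genes, 6 of 14 were measured and 1 was at least 2-fold different. Pdgfra, the receptor through which platelet-derived growth factor drives precursor division, read 188 on the Pax6 array and 43.0 on the EGFP array, a difference of 1.92 ± 0.22, and 1.14 with normexp background correction. Cspg4, which marks the same precursors, lay on the other side of 0. Ptprz1, a receptor phosphatase of precursors and radial glia, differed by -0.16 ± 0.20 by its brightest probe and by 0.40 by its other measured probe. Cd9, a tetraspanin, differed by -0.23 ± 0.20 by its brightest probe and by -0.68 by its other.

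Of 10 genes of premyelinating cells 8 were measured and 1 was at least 2-fold different. Tmem163, a zinc transporter gene, read 17.8 on the Pax6 array and 89.9 on the EGFP array and was 5.86-fold lower (-2.55 ± 0.33), and -0.86 with normexp background correction. Itpr2, an intracellular calcium channel gene, differed by -0.56 ± 0.20 and Rras2, a small GTPase gene, by 0.15 ± 0.20.

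Of 25 myelin protein genes beyond the members 19 were measured, 12 of them above 0 and 7 below, with a median of 0.28. Mobp, a compact myelin gene named after its values were seen, read 64.2 on the Pax6 array and 45.4 on the EGFP array (0.28 ± 0.23). In this list 2 genes were at least 2-fold different, both higher in the Pax6 line, beside 2.39% of all genes. These were Apod, which encodes the lipid carrier apolipoprotein D (3.11-fold, 1.63 ± 0.35), and Gjb1, which encodes a gap junction connexin (2.19-fold, 1.13 ± 0.28). Apod read 62.8 on the Pax6 array and 17.4 on the EGFP array, and Gjb1 read 48.1 and 18.95 on the Pax6 and EGFP arrays. With normexp background correction they differed by 0.55 and 0.49. Qdpr, an enzyme of biopterin recycling, and Jam3, a junction protein, had the brightest probes of the other genes by the mean over both arrays and differed by 0.16 ± 0.20 and 0.70 ± 0.20.

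The lipid enzymes that work beside Ugt8a showed small differences. Of 16 genes of sphingolipid and sterol metabolism 14 were measured. None differed by as much as 2-fold, and they lay between -0.23 and 0.44 with a median of 0.08. Degs1, which makes ceramide, differed by 0.18 ± 0.20. Fa2h, which hydroxylates fatty acids that these galactolipids carry, and Gal3st1, which sulphates the galactolipids that Ugt8a starts, were at background in both lines.

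Inhibitors of differentiation went both ways. Of 13 genes 10 were measured, with 1 at least 2-fold lower and 1 at least 2-fold higher. Id2, which blocks proneural and Olig factors, read 211 on the Pax6 array and 452 on the EGFP array (-1.31 ± 0.20), and Bmp4, a ligand that turns precursors towards astrocytes, read 93.8 and 39.1 on the Pax6 and EGFP arrays (1.05 ± 0.23, and 0.53 with normexp background correction). Tcf4 encodes an E-protein transcription factor and stood in this list although it is not an established inhibitor. It differed by 0.46 ± 0.20, and Id4 by -0.15 ± 0.20.

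Among growth signals and receptors, 11 of 15 genes were measured. Nrg1, an axonal ligand of ErbB receptors, was 2.20-fold higher in the Pax6 line (1.14 ± 0.20, with its 5 measured probes between 0.37 and 1.42), and Gas6, a ligand of TAM receptors, was 2.02-fold lower (-1.02 ± 0.20, -0.93 after scaling by the array's median and -0.67 with normexp). Pdgfa, the ligand of Pdgfra, read 19209 on the Pax6 array and 26615 on the EGFP array, a difference of -0.68 ± 0.20. Of 6 genes whose products carry or bind myelin transcripts, 5 were measured and none differed by 2-fold, with Hnrnpa2b1 at 0.12 and Cyfip1 at -0.13.

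Over the 8 lists, 85 of 117 genes were measured, 4 of them as bounds. Of these, 6 were higher in the Pax6 line by at least 2-fold, beside 2.39% of all genes, and 3 were lower, beside 2.46%. Their median difference was 0.07, close to the -0.01 of all genes.

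**Figure D4:**
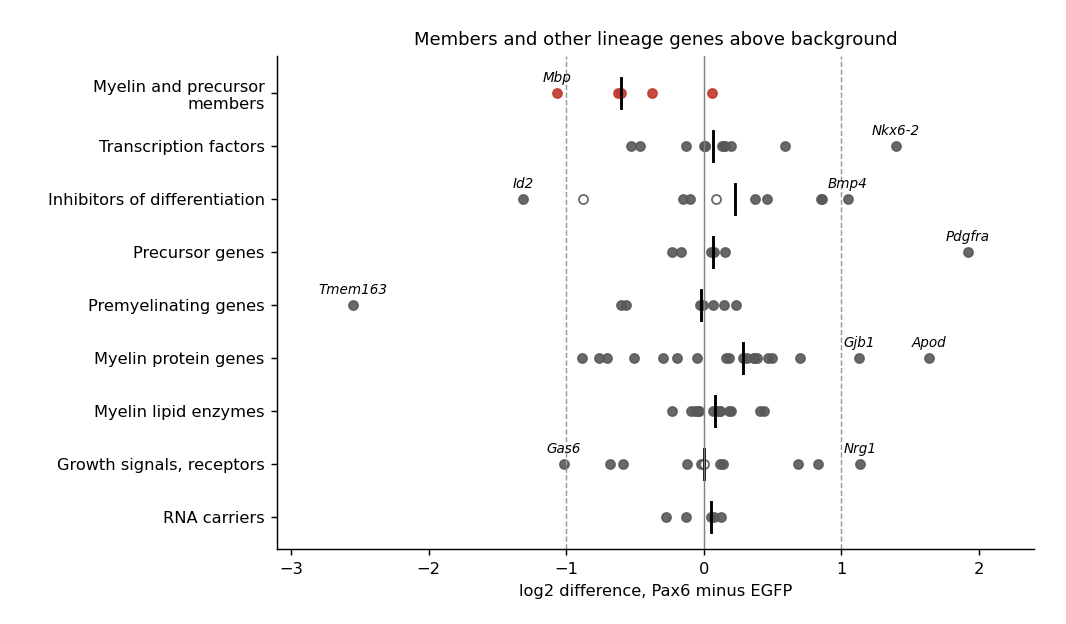
Log2 difference, Pax6 minus EGFP, of the 5 measured members (red) and of the measured genes of the 8 lineage lists (grey), with 1 point per gene and a bar at each median. Dashed lines mark 2-fold, genes past it are named and open points are bounds. The members' median is -0.60 and the medians of the lists lie between -0.02 and 0.28.

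Markers of other cells that carry these genes were read on the same arrays. Of 9 pericyte and smooth muscle markers, whose cells also make NG2, 7 were measured, with a median of -0.41, and Des, the gene of the muscle filament desmin, was 2.90-fold lower in the Pax6 line (-1.54 ± 0.25, and -0.56 with normexp). The summed level of the 9, most of it from Acta2, was 1782% of the 75th percentile on the Pax6 array and 1683% on the EGFP array, and the pericyte genes Abcc9 and Kcnj8 were at background in both lines. Of 9 Schwann cell markers 6 were measured, with a median difference of 0.04. The summed level of the 9 was 150.03% on the Pax6 array and 82.5% on the EGFP array, and without Ngfr 30.5% on the Pax6 array and 32.0% on the EGFP array. Ngfr was 2.37-fold higher in the Pax6 line by its brightest probe and differed by -0.56 by another, and Pmp2, a peripheral myelin gene, was at background. Of 8 microglia and blood markers 3 were measured, and the summed level of the 8 was 38.3% on the Pax6 array and 50.3% on the EGFP array, while Ptprc, Aif1, Itgam, Csf1r and Cx3cr1 were at background. The part of these cells in the values of the members was not tested.

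The cells' label as neural progenitors was also read. Of 8 progenitor markers 7 were measured, with Vim at 0.13 and Msi1 at 0.03, Sox2 3.34-fold higher in the Pax6 line and Nes 3.17-fold lower. Of 9 astrocyte markers 8 were measured, with 1 at least 2-fold lower and 1 at least 2-fold higher. Slc1a3 was 12.9-fold lower (-3.69 ± 0.23, -1.79 by its other measured probe, and -2.19 with normexp). Aqp4 was higher by at least 3.86-fold, and by 0.67 on the log2 scale with normexp. Of 9 neuron markers 7 were measured, with Snap25 3.15-fold lower. Of the 3 Pax6 probes, 2 were measured on both arrays and differed by 0.35 and 0.26, and the third read 14.8 on the Pax6 array and 2.50 on the EGFP array, where it was not well above background. All 3 read higher on the Pax6 array. No source used here says whether they read the vector's transcript, so they check neither the overexpression nor the labels that set each direction above.

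**Figure D5:**
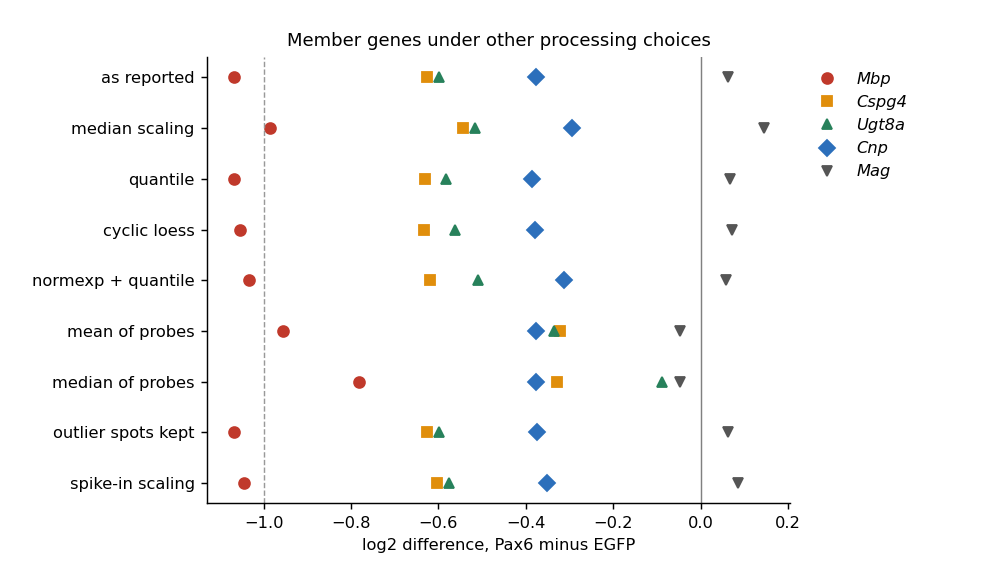
Log2 difference, Pax6 minus EGFP, of the 5 measured members as reported and under 8 other ways of processing, with a dashed line at 2-fold lower. Mbp, Cspg4, Ugt8a and Cnp stay below 0 in each, while Mag lies between -0.05 and 0.14.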

How the data were processed

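Total RNA of the Pax6 and EGFP lines was amplified and labelled with Cy3, per the labels' protocols, and both arrays lay on 1 slide. The authors' intensities come from Agilent Feature Extraction 10.7.3.1, which subtracted background and detrended each array, per the file headers, with no scaling between arrays. The same intensities stand in the authors' deposited series table, linear and not centred (medians 53.7 for Pax6 and 49.1 for EGFP). Deposited flags (unit other) mark spots well above background (13.0 SDs) and outliers.

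Outlier spots were left out, which kept 43283 of 43379 non-control spots. Each array was divided by its 75th percentile, values were put on the log2 scale, spots were averaged, and the brightest probe stood for its gene. A probe at background on 1 array gives a bound, written "at least". Of 41168 probes, 22951 were named by accession, 3107 by a synonym of 1 gene and 15110 by the array. Of the spots, 67.2% on the Pax6 array and 64.7% on the EGFP array were well above background and none was saturated. The 8 spike-ins differed by -0.05 to 0.10. The text names all 7 members and, from each lineage list, up to 4 genes at least 2-fold different and the 2 brightest others, while marker genes are examples chosen after their values were seen. A gene that this rule selects is not reported here. The members and lists were chosen with earlier results of these data known. Alternatives used limma 3.58.1 in R 4.3.3. Steps were tested on simulated data. The number of arrays limits the precision.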

Additional observations from a re-analysis of the deposited data

How the results depend on the processing

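The differences of Mbp (-1.07 to -0.78), Cnp (-0.39 to -0.29), Cspg4 (-0.63 to -0.32) and Ugt8a (-0.60 to -0.09) stayed below 0 under all 11 alternatives that give a difference, and that of Mag (-0.05 to 0.14) was below 0 in 2 of them. Among the 11, the deposited series table and the background filters could not change these values. The series table holds the same intensities, and the brightest probe of each gene was well above background on both arrays. The members' median of -0.60 was -0.33 with both the mean and the median of a gene's probes (mean -0.335, median -0.329) and -0.38 when dim probes were kept. The count of members at least 2-fold lower was 0 after scaling by the array's median, with the mean and with the median of a gene's probes and at 3-fold, and 3 at 1.5-fold. The count of members at least 2-fold higher was 1 without a filter, from a Gpr17 probe that was not well above background on either array. Of the lineage genes (6 higher, 3 lower), 2 were higher and 1 lower with normexp background correction and also at 3-fold, 12 higher and 10 lower at 1.5-fold, and 14 higher without a filter. Of all genes (442 higher, 456 lower, so 49.2% of the differing genes were higher), 173 were higher and 107 lower with normexp (61.8% higher), 527 and 362 after median scaling (59.3% higher), 1264 and 1193 without a filter, 163 and 102 at 3-fold and 1106 and 1434 at 1.5-fold. Fewer or more genes pass these by construction at other folds and filters, and otherwise the cause was not tested. Keeping outlier spots and scaling to the spike-ins were added after seeing the data and changed none of these counts by over 1.5 times. No paired analysis was possible because each line has 1 array. Signal over background limits Mog and Gpr17, which have no measured difference.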
